A study of Mus musculus with 4 samples.

Results

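The brush border peptidases Dpp4, Anpep, Enpep, Ace, Mep1a and Mep1b were examined for crosslinking to MSI2, an RNA-binding protein of the Musashi family, in mouse intestinal epithelium. The 6 genes were chosen by name as membrane peptidases of enterocytes, out of 21900 protein-coding genes, with earlier results of these data known. Every deposited peak that overlapped their spans on mm10 by at least 1 base was taken. This gave 52 of the 12061 peaks of the wild-type (WT) list and 66 of the 16939 peaks of the TRE-Msi2 list. CLIP-seq, in which ultraviolet light joins RNA to protein before immunoprecipitation and sequencing, was carried out with an antibody to MSI2 on 4 libraries. The 2 WT libraries came from intestinal crypts, with no doxycycline recorded. The 2 TRE-Msi2 libraries came from total epithelium of mice carrying a doxycycline-inducible Msi2 transgene, after 24 hours of doxycycline. The labels name C57BL6 as the background of all 4 libraries and name no driver of the transgene. Genotype, tissue fraction and doxycycline therefore cannot be told apart. The authors pooled the libraries of each genotype into 1 peak list, so replicate spread is unknown throughout and nothing was tested between the lists. Whether fewer cells of a type or less RNA per cell lies behind a low score cannot be told apart in such bulk samples.

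Brush border peptidases are enzymes held in the microvillus membrane of absorptive enterocytes, where they carry out the last steps of protein digestion and process peptide hormones. They cleave peptides from the lumen into amino acids and very short peptides, which apical transporters then take up. Some are also made outside the gut epithelium, for example Dpp4 on T cells, Anpep on myeloid cells and Ace on endothelium. MSI2 is mainly cytoplasmic, binds messenger RNA and is best known in stem and progenitor cells.

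Each peak carries a score set by the authors. Its unit is not stated. It was a whole number in 99.1% (WT) and 96.7% (TRE-Msi2) of the peaks of a single 200-nt bin, as a count of reads would be, and often a fraction where neighbouring bins were joined. Intervals on scores below take it as a read count. The depth of the libraries is unknown, so scores were ranked within a list. The median was 19 for WT and 24.7 for TRE-Msi2. Markers of intestinal epithelium had peaks: 10 of 10 enterocyte genes did in both lists, as did 6 (WT) and 7 (TRE-Msi2) of 7 pan-epithelial genes. The WT libraries are labelled as crypts, and no list of crypt cell markers was counted here. Of 6 endothelial genes 0 had a WT peak and 1, Tek, a TRE-Msi2 peak (score 28), which lay off its strand. Of 6 T cell genes 1 had a peak in each list (Cd3d, 32 in WT and 44 in TRE-Msi2), and of 6 myeloid genes also 1 (Lyz2, 39.6 and 38). Of 6 stromal genes 0 had a peak in either list. For comparison, 20.3% (WT) and 24.9% (TRE-Msi2) of protein-coding genes had a peak. Counts of 0 or 1 of 6 therefore do not show whether these cells were present. The part of other cell types in the peaks over Dpp4, Anpep and Ace was not tested. RNA abundance was not used here, so more transcript and more binding cannot be told apart.

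All 6 peptidase genes had a peak in both lists, where 20.3% of protein-coding genes had a WT peak and 24.9% a TRE-Msi2 peak. Of the 6, all but Mep1a had 7 or more peaks in each list, a number reached by 0.516% of protein-coding genes in WT and 1.04% in TRE-Msi2. In WT, Dpp4 had 15 peaks, Anpep 11, Enpep 10, Ace 8, Mep1b 7 and Mep1a 1. In TRE-Msi2, Dpp4 had 20, Anpep and Enpep 12 each, Mep1b 11, Ace 10 and Mep1a 1. The order was the same in both lists except that Mep1b and Ace changed places and Anpep and Enpep were level. Among genes with a peak, Dpp4 stood at rank 6 by number in both lists, and Anpep at rank 14 among 4449 WT genes and rank 35 among 5448 TRE-Msi2 genes. Mep1a was 1 of 2622 genes with a single WT peak. Per length the order differed: Anpep and Ace, the shortest spans, had 4.17 and 3.63 WT peaks per 10 kb (ranks 20 and 33 of 3637 genes of 10 kb or more), against 1.82 for Dpp4 (rank 164).

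**Figure D1:**
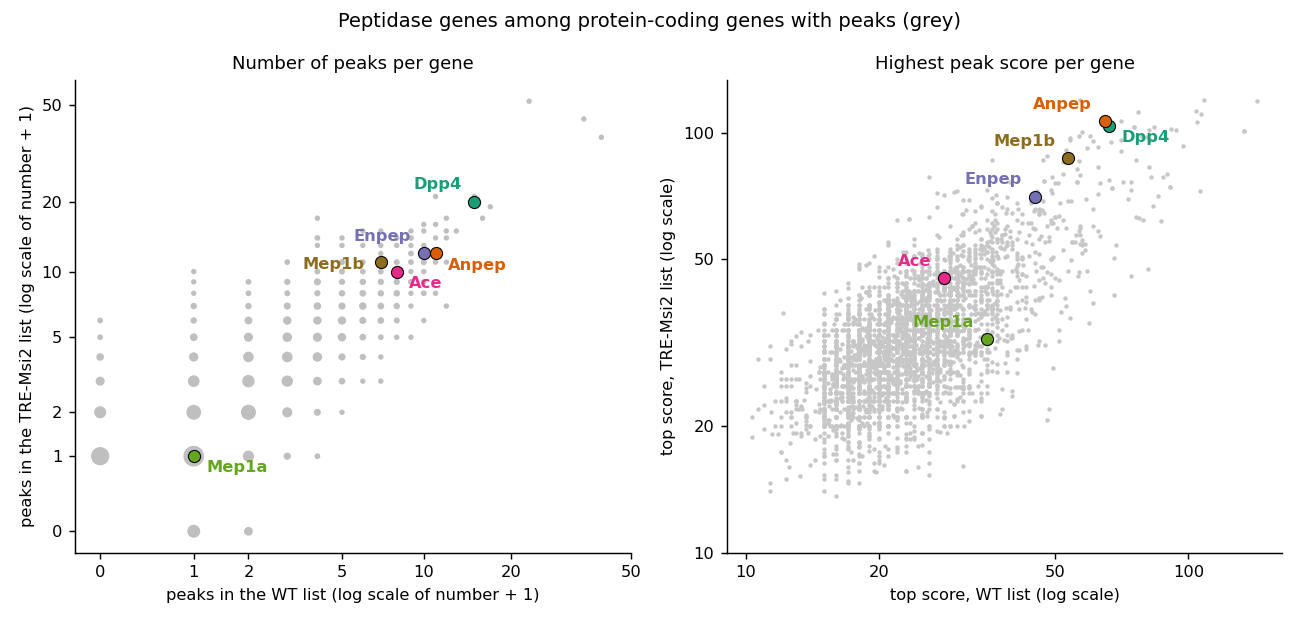
Left, number of peaks per protein-coding gene in the WT list (x) and the TRE-Msi2 list (y), both on a log scale of the number plus 1, with larger grey dots where more genes coincide. Right, the highest score of each gene with peaks in both lists, on log axes. Dpp4, Anpep, Enpep, Ace and Mep1b lie toward the upper end of the left plot, at 7 to 15 WT peaks, while Mep1a has 1 in each list, and Dpp4 and Anpep have nearly the same top scores.

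Dpp4 encodes dipeptidyl peptidase 4 (CD26), a serine protease that removes dipeptides after proline or alanine and inactivates incretin hormones. It spans 82.2 kb of chromosome 2 (positions 62330073 to 62412315, minus strand). Its WT scores ran from 15 to 66 with a median of 23, and 10 of 15 lay above the median of the list. Its TRE-Msi2 scores ran from 20 to 104 with a median of 36, and 15 of 20 lay above the median of that list. The highest score in both lists fell in the same bin, at positions 62352144 to 62352343, with 66 in WT (exact Poisson 95% interval 51.0 to 84.0, counting error only) and 104 in TRE-Msi2 (85.0 to 126). These were ranks 61 and 15 of all peaks. The next strongest bin was again common to both, at 62358744 to 62358943, with 59 (44.9 to 76.1) and 95 (76.9 to 116). In the TRE-Msi2 list 3 more Dpp4 bins were among the top 1% of peaks, with scores of 74, 73 and 66; the same bins had 36, 34 and 34 in WT.

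The Dpp4 peaks were spread over the gene but not evenly. All WT peaks lay 33.2 kb or more from the gene start, and the TRE-Msi2 list added only 2 peaks before that, at 1.07 kb (score 22) and 25.3 kb (score 28). Of the 15 WT peaks 8 were centred between 51.7 and 60.1 kb from the start, both of the strongest bins among them. A wide peak close to the 3′ end covered 5 bins in WT (62331744 to 62332743, score 28.8) and 6 in TRE-Msi2 (62331544 to 62332743, score 40.9). The bin at 62333544 to 62333743 was the exception in strand: its peak lay on the plus strand, opposite to Dpp4, in both lists, with scores of 15 and 22, and no other gene span of the RefSeq table covers it. Dpp4 thus had 14 WT and 19 TRE-Msi2 peaks on its own strand.

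Anpep encodes aminopeptidase N (CD13), a zinc enzyme that releases neutral amino acids from the amino end of peptides and is among the most abundant proteins of the microvillus. It spans 26.4 kb of chromosome 7 (79821803 to 79848210, minus strand), and peaks covered 22.7% of that span in WT and 25.7% in TRE-Msi2, more than in any other of the 6 genes. It also held the widest peak, 10 joined bins at 79828515 to 79830514 with the same borders in both lists. That peak had the highest Anpep score, 64.7 in WT (rank 67 of all peaks) and 106.5 in TRE-Msi2 (rank 12). WT scores ran from 15 to 64.7 with a median of 23.5, and TRE-Msi2 scores from 22 to 106.5 with a median of 51.3, the highest median of the 6 genes in that list. The standing of Anpep rests on joined peaks: 7 of its 11 WT peaks and 8 of its 12 TRE-Msi2 peaks were wider than 1 bin. With single-bin peaks alone its top WT score was 23, at percentile 67.9 of 3538 genes, in place of 98.9 of 4449 genes. In TRE-Msi2 the single-bin top was 56, at percentile 97.8. Over the whole lists 36.7% (WT) and 41.2% (TRE-Msi2) were wider than 1 bin. The 6 genes together lay slightly below that, at 17 of 52 (32.7%, exact Clopper-Pearson 95% interval 20.3% to 47.1%) and 23 of 66 (34.8%, 23.5% to 47.6%).

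Enpep encodes aminopeptidase A, which removes acidic residues from the amino end of peptides and converts angiotensin II to angiotensin III. It spans 63.6 kb of chromosome 3 (129269177 to 129332749, minus strand). WT scores ran from 19 to 45 with a median of 24, and TRE-Msi2 scores from 21 to 70.4 with a median of 37.5. The highest score in both lists belonged to a wide peak centred within 0.907 kb of the 3′ end, at 129269683 to 129270482 in WT (45) and 129269483 to 129270482 in TRE-Msi2 (70.4). The strongest single bin, 129281483 to 129281682, had 38 in WT (26.9 to 52.2) and 68 in TRE-Msi2 (52.8 to 86.2). Enpep was the only one of the 6 with a WT peak in the first 2 kb of the gene: the bin at 129332283 to 129332482, 0.366 kb from the gene start, had 24 in WT and 39 in TRE-Msi2. A further TRE-Msi2 peak lay beside it at 129331883 to 129332082, with 21. Peaks thus reached from end to end of Enpep, with a WT gap of 20.4 kb in its interior.

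Ace encodes angiotensin-converting enzyme, a zinc dipeptidyl carboxypeptidase that makes angiotensin II and cuts dietary peptides at the carboxyl end. It spans 22.0 kb of chromosome 11 (105967948 to 105989964, plus strand). Of the 5 densely covered genes it had the lowest median and top score in both lists. Its scores ran from 15 to 28 in WT with a median of 21, and from 24 to 45 in TRE-Msi2 with a median of 31. None of its WT peaks was among the top 10% of the list, and 3 of its TRE-Msi2 peaks were. The top score in both lists belonged to a peak of 3 bins across the gene end, 105989487 to 105990086, of which 122 nt lay past the annotated end. The noncoding gene Gm11651 overlaps most of Ace, and 6 of 8 WT and 8 of 10 TRE-Msi2 peaks fell in its span too. RefSeq places Gm11651 on the minus strand, and all Ace peaks of both lists were on the plus strand, that of Ace.

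The RefSeq promoter table gives Ace an upstream start, known for the long somatic form, and an internal start 7.24 kb downstream, known for the short testis form. The 120 bases before each start are shown because peaks lay on both sides of the internal start, and a reader can see how the starts differ. They lie on the plus strand of GRCm38 at chr11:105967828-105967947 and chr11:105975069-105975188, and capitals mark the motif TGAGGTCA, described for the testis promoter. The motif was searched on both strands and occurs in 1.94% of 32851 windows of 250 bases before RefSeq starts.
Ace upstream start: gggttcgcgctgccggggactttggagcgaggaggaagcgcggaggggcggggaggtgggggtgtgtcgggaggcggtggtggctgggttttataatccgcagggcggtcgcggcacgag
Ace internal start: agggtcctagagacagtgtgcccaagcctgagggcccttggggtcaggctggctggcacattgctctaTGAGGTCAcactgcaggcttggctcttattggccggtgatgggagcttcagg

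G and C make up 70.8% of the bases before the upstream start and 60.0% of those before the internal start, and the motif was found in the internal window alone, 52 bases before the start. Before the internal start there were 2 WT peaks, at 105972887 to 105973086 (score 20) and 105973287 to 105973486 (22). Those bins had 29 and 35 in TRE-Msi2, which added a peak at 105974687 to 105974886 (29), ending 303 nt before the start. These bins lie within the span of the long form and upstream of the short one. After the internal start there were 6 WT and 7 TRE-Msi2 peaks, the first of them 298 nt past it in both lists. Those bins lie within the spans of both forms. The share of either form was not measured.

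Mep1a and Mep1b encode the alpha and beta subunits of meprin, a zinc metalloprotease of the astacin family. The beta subunit is anchored in the membrane and holds the alpha subunit there, while free alpha is secreted. Mep1b, on chromosome 18 (21072344 to 21100199), had 7 WT peaks with scores of 19 to 53.5 and a median of 21.5, and 11 TRE-Msi2 peaks with scores of 21 to 87 and a median of 40.5. Mep1a, on chromosome 17 (43474324 to 43504143, minus strand), had a single peak in each list over a span of similar length, 29.8 kb against 27.9 kb. Its peak lay at the 3′ end, at 43474452 to 43474851 in WT (score 35, rank 616 of all peaks) and 43474252 to 43474851 in TRE-Msi2 (32.2, rank 3114). These peaks joined 2 and 3 bins, and how joined scores were averaged is not stated. Score times bins was 70 in WT but not a whole number in TRE-Msi2 (96.75), so it is not a read total there. No direction was read from these scores. Mep1b also had its top score at the gene end, at 21099900 to 21100299, with 53.5 in WT (rank 136) and 87 in TRE-Msi2 (rank 51), and its WT peaks began 14.0 kb from the gene start. The TRE-Msi2 list added 2 Mep1b peaks before that, with scores of 21 and 25.5. The strand of Mep1b was taken from its peaks, all of which were on the plus strand.

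**Figure D2:**
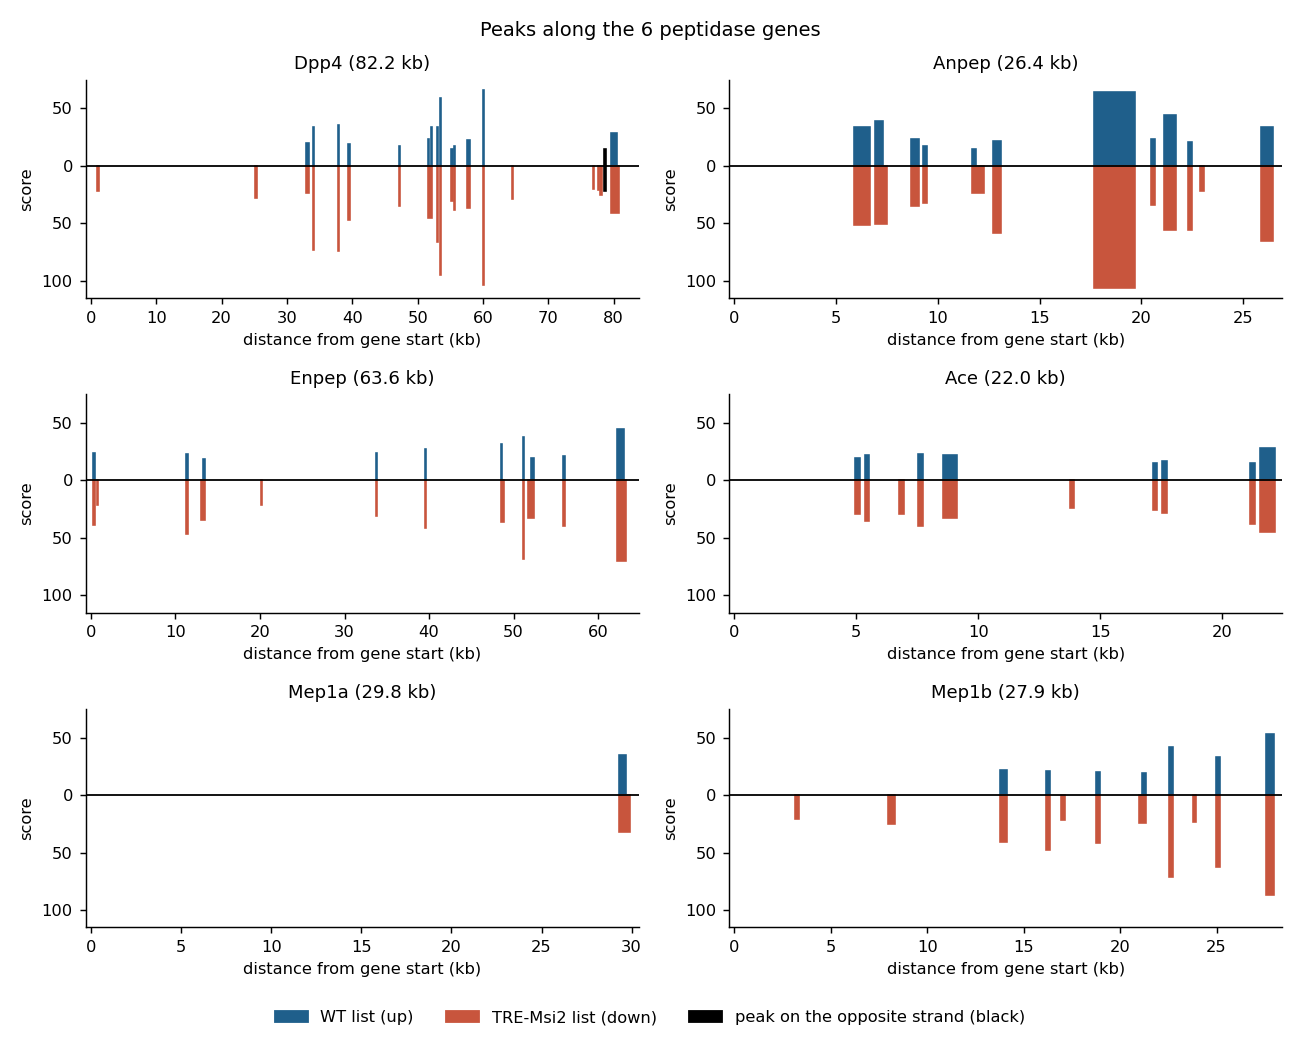
Peaks along each gene, drawn to scale from the gene start (x, kb) with the score (y); WT peaks point up in blue and TRE-Msi2 peaks down in red, and black marks the Dpp4 bin on the opposite strand. Every WT bar stands over a TRE-Msi2 bar, Anpep has the widest block (2000 nt), and Mep1a has only 1 peak per list, at its end.

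Every WT peak over the 6 genes had a TRE-Msi2 counterpart on the same strand, 52 of 52 (100%, exact Clopper-Pearson 95% interval 93.2% to 100%, counting error only), where 91.3% of all WT peaks did. In the other direction 51 of 66 TRE-Msi2 peaks had a WT counterpart (77.3%, 65.3% to 86.7%), against 57.6% of all TRE-Msi2 peaks. Peaks of 1 gene are not independent, so both intervals are too narrow as a guide to other genes. Counted in bins, all 88 WT bins of the 6 genes were among the 116 TRE-Msi2 bins, which is 75.9% of the latter. Over the whole lists the shares were 92.5% and 55.3%. The 15 TRE-Msi2 peaks without a WT counterpart had a median score of 22, with none above 29, close to the median of 23 over all 7186 such peaks. Of the 15, 5 scored above the median of the list (33.3%, against 33.0% of all such peaks). The 51 with a counterpart had a median of 40.5, against 27 over all such peaks. Of the peaks without a counterpart Dpp4 held 6, Mep1b 4, Enpep and Ace 2 each and Anpep 1. When only as many TRE-Msi2 peaks as WT peaks were kept, by score, 51 of 52 WT peaks still had a counterpart (98.1%, against 71.0% of all WT peaks), as did 50 of the 59 remaining TRE-Msi2 peaks (84.7%, against 63.9%).

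Bins called alone at the same place in both lists allow scores to be set side by side. There were 3942 such bins in all, with a median TRE-Msi2 to WT score ratio of 1.52, and this median carries the unknown difference in depth and in the lowest score called. The 6 genes held 29 of them, with a median ratio of 1.88, and 24 of the 29 lay above the median of all bins. Among bins with WT scores of 17 to 33 the medians were 1.89 (18 bins of the 6 genes) and 1.47 (2730 bins in all). Dpp4 gave 10 bins, 1 of them on the opposite strand (median 2.06), Enpep and Ace 6 each (1.71 and 1.69), Mep1b 4 (2.00), Anpep 3 (1.88) and Mep1a 0. Summed over the bins, the scores of the 6 genes were 758 in WT and 1393 in TRE-Msi2, a ratio of 1.84 (exact binomial 95% interval 1.68 to 2.01, counting error only), against 1.50 (1.49 to 1.51) over all such bins. Among other lists with over 10 bins, the ratio was 1.96 (1.71 to 2.26, 15 bins) for the other gut-surface peptidases, 1.83 (1.60 to 2.09, 14 bins) for the pan-epithelial markers, 1.80 (1.66 to 1.95, 37 bins) for the enterocyte markers, 1.74 (1.59 to 1.91, 28 bins) for other apical enzymes and 1.67 (1.43 to 1.95, 11 bins) for the transport genes. All of these intervals overlap that of the 6 genes. The enterocyte markers and the other apical enzymes share Sis, Mgam and Alpi, so their ratios are not independent. Lists with fewer bins lay on both sides of the 6 genes. The relatives of Ace and of the meprins gave 1.97 (1.66 to 2.35, 9 bins). That list shares a gene with the gut-surface list, so their ratios are not independent either. The relatives of Dpp4 gave 1.85 from 2 bins. Lower ratios were 1.65 (cytosolic peptidases) and 1.45 (relatives of Anpep and Enpep, 1.01 to 2.10), both from 3 bins. The T cell markers gave 1.375 from 1 bin. Per the labels the tissue fraction differed with genotype, and its part in these ratios was not tested. Across the 9 Dpp4 bins on its own strand, which share a gene and the pooled libraries of each list, the order of scores was nearly the same in both lists (Spearman correlation 0.992, median ratio 2.06). This correlation was 0.795 across the 29 bins of the 6 genes, 0.551 across the 6 Ace bins, 0.348 across the 6 Enpep bins and 0.596 over all 3942 bins. The genes differed in score range: WT scores ran from 15 to 66 in these Dpp4 bins, but from 15 to 23 in Ace and from 21 to 38 in Enpep.

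**Figure D3:**
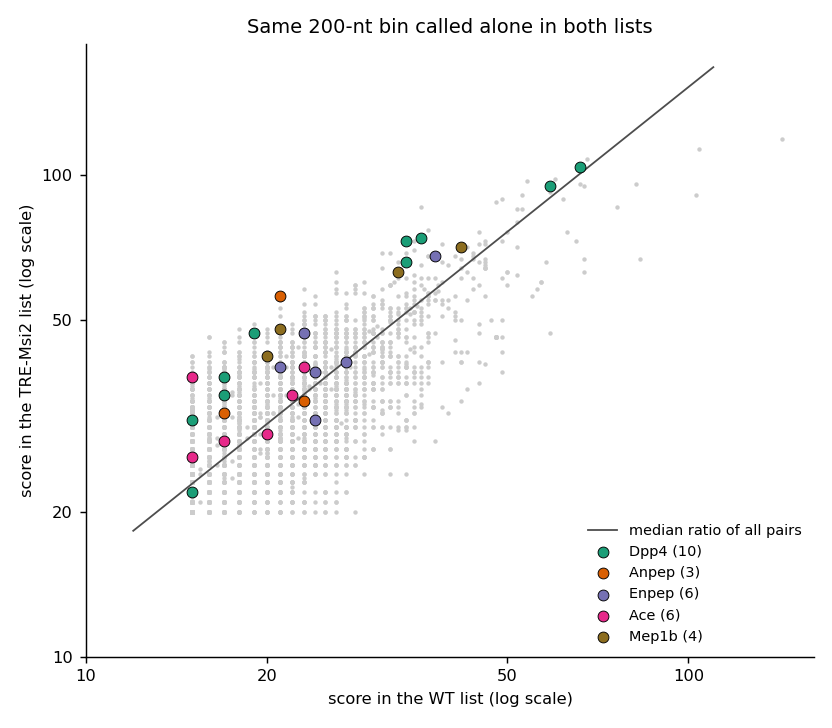
Score in the WT list (x) and in the TRE-Msi2 list (y), on log axes, for every 200-nt bin that was a peak by itself in both lists (grey, 3942 bins) and for those in the peptidase genes (coloured, number of bins in brackets). The line is the median ratio of all bins, 1.52, and 24 of the 29 coloured points lie above it.

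Most peptidase peaks lay inside the genes and not at their ends. Of the WT peaks on the gene's strand, 7 of 51 fell in the last 10% of the span (13.7%, 5.70% to 26.3%), where 60.0% of such peaks did over protein-coding genes of 10 kb or more with a strand in the table. In TRE-Msi2 it was 10 of 65 (15.4%, 7.63% to 26.5%), where the background was 52.1%. Genes with 7 or more peaks on their strand, a comparison added after the data had been seen, gave 29.1% in WT (73 genes, 715 peaks) and 28.5% in TRE-Msi2 (154 genes, 1542 peaks). The shares of the 6 genes lay below these too, but by less, and peaks of 1 gene are not independent, so the intervals are too narrow as a guide to other genes. Among single-bin peaks alone, 1 of 34 WT peptidase peaks (2.94%) and 4 of 42 TRE-Msi2 ones (9.52%) lay in the last 10%, where 55.5% and 46.4% of all such peaks did. All of the genes but Dpp4 nevertheless had a peak centred within 2 kb of the gene end in both lists. The last Dpp4 peak was centred 2.17 kb (WT) and 2.07 kb (TRE-Msi2) from it. For Enpep, Ace, Mep1a and Mep1b the peak at the end carried the top score of the gene. In the last 2 kb lay 11.8% (WT) and 9.23% (TRE-Msi2) of the peptidase peaks, where 47.2% and 40.0% did over genes of 10 kb or more. The share of all genes with such a peak was not counted. Exon borders were not used here, so the share of intronic peaks was not measured.

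**Figure D4:**
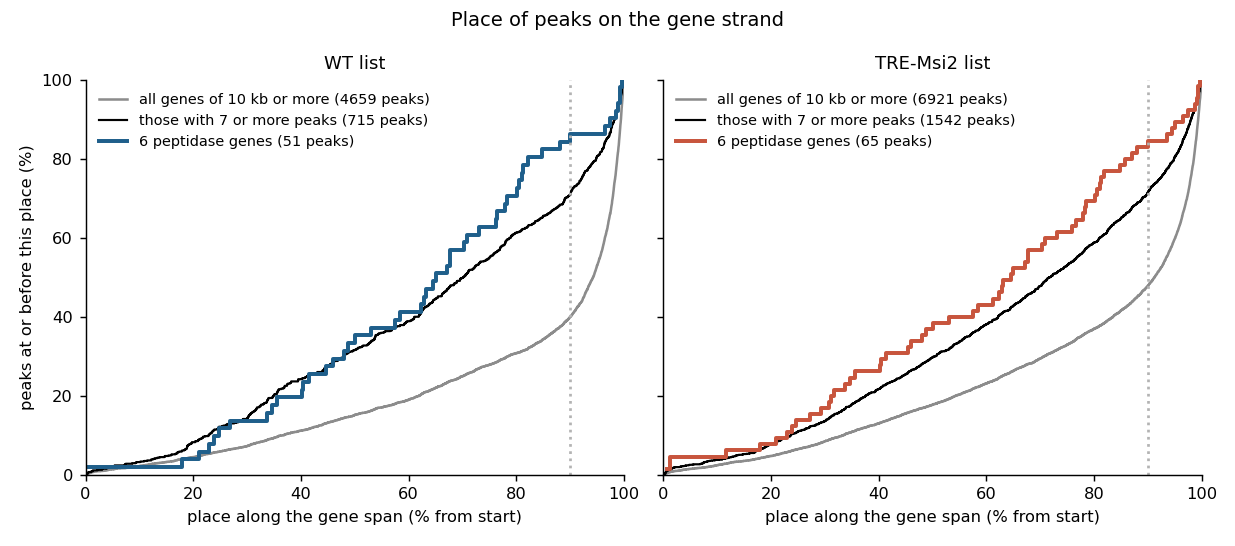
Cumulative share of peaks (y, %) by place along the gene span (x, % from the start) for peaks on the gene's strand in the WT list (left) and the TRE-Msi2 list (right). The dotted line marks 90% of the span: the peptidase curve lies above both other curves there in both lists, while the curve for all genes of 10 kb or more has 60.0% (WT) and 52.1% (TRE-Msi2) still to come.

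The strand of the peaks followed the genes. Over the 5 genes whose strand the RefSeq table gives, 44 of 45 WT peaks and 54 of 55 TRE-Msi2 peaks lay on the gene's strand, the exception being the Dpp4 bin above. Over all peaks that touch a single gene span, that of a protein-coding gene with a known strand, 84.3% (WT) and 86.3% (TRE-Msi2) did. The counts for the 5 genes also hold the Ace peaks that touch Gm11651, a kind of peak left out of these shares.

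Other genes of peptide digestion and uptake were counted from fixed lists. Of 13 other peptidases of the gut surface, 9 (69.2%) had a WT and 11 (84.6%) a TRE-Msi2 peak, against 20.3% and 24.9% of protein-coding genes. Their median was 1 peak per gene in each list, against 9 and 11.5 for the 6 genes and 0 over all protein-coding genes. Among those with high scores were Naaladl1, a peptidase of the enterocyte surface (4 peaks in each list, top scores 87.5 and 78.3), Mme, neprilysin (7 and 8 peaks, 29.3 and 40), and, level at the next place, Adam10 (5 and 4 peaks, 23 and 39) and Xpnpep2, aminopeptidase P (1 in each, 19 and 39). Tmprss15, the enteropeptidase that activates trypsinogen, and Folh1 had no peak in either list. Naaladl1 had a higher top WT score than any of the 6 genes.

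Close relatives of Dpp4 and of the aminopeptidases were also counted. Of 9 relatives of Dpp4, 3 (33.3%) had a peak in both lists (Dpp8, Prep and Prepl), with 5 WT and 6 TRE-Msi2 peaks in all, and Dpp4 itself had more WT peaks than all 9 together, 15 against 5. Their top scores were 19.5 and 24, 16 and 30, and 40 and 33 in turn, and every peak of Prepl lay off its strand. Of 9 M1 aminopeptidases related to Anpep and Enpep, 5 (55.6%) had a WT peak and 5 a TRE-Msi2 peak, 4 of them in both, with 13 and 19 peaks in all. Over all protein-coding genes the shares were 20.3% and 24.9%, as above. The highest-scoring were Aopep (23 in WT and 40 in TRE-Msi2), Lnpep (21 and 30), Erap1 (27 and 27.7) and Npepps (23.5 and 26.3), and none of the 5 WT peaks of Aopep was on its strand. Among the relatives of Ace and of the meprins, Tll1 had 1 peak in each list (top scores 24 and 32), and Tll2 had 1 WT and 2 TRE-Msi2 peaks (18.7 and 26.7), none of them on its strand.

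Cytosolic peptidases and transport genes had fewer peaks per gene than the 6 genes, but not fewer than the other gut-surface peptidases. Their medians were 1 and 2 in each list, against 9 (WT) and 11.5 (TRE-Msi2) for the 6 genes and 1 for the gut-surface list. Over all protein-coding genes 20.3% had a WT peak and 24.9% a TRE-Msi2 peak. Of 11 cytosolic peptidases 7 had a WT peak and 7 a TRE-Msi2 peak, 6 of them in both, led by the leucine aminopeptidase gene Lap3 with 5 peaks in each and top scores of 37 and 68, followed by Blmh (23 and 32), Cndp2 (15.7 and 30) and Pepd (24 and 29.3). The list of peptide and amino acid transport held 14 genes, among them Clca4a and Slc9a3, which carry neither peptides nor amino acids. Of the 14, 12 had a peak in each list, and the median was 2 peaks per gene. The peptide transporter gene Slc15a1, which takes up the products of the brush border enzymes, had 2 WT and 3 TRE-Msi2 peaks with top scores of 20 and 48. The highest in the list were Clca4a, a chloride channel regulator (9 and 12 peaks, 50 and 76), Slc16a10, an aromatic amino acid carrier (5 and 6 peaks, 46 and 40), Slc9a3, a sodium-proton exchanger (3 and 2 peaks, 42 and 46), and Slc15a1. Of 8 other apical enzymes 7 had a peak in each list, led by the disaccharidase genes Mgam (23 and 52 peaks, top scores 66 and 77) and Sis (35 and 44 peaks, 50.7 and 76), the alkaline phosphatase gene Alpi (2 in each, 38.8 and 64.4) and the ceramidase gene Asah2 (8 and 11 peaks, 50 and 63). By number of peaks and top score in both lists, the 5 genes nearest to Dpp4 among 5711, by the sum of rank differences over the 4 measures, were Anpep (42), Clca4b (48), Mgam (51), Muc13 (61) and Apob (62).

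**Figure D5:**
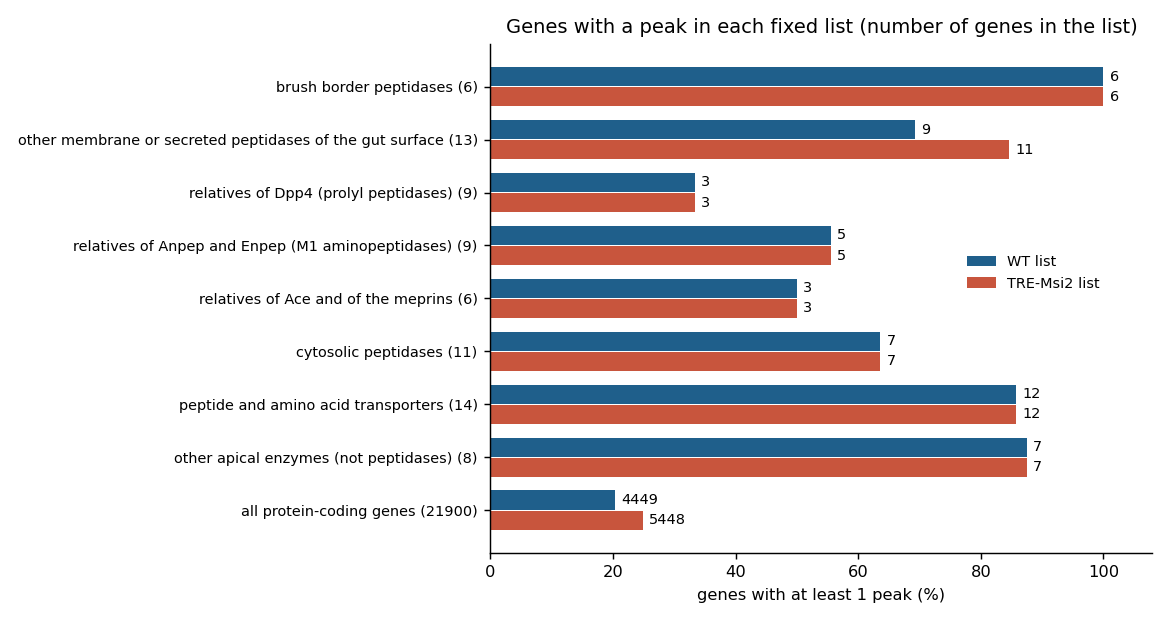
Percent of genes with at least 1 peak in the WT (blue) and TRE-Msi2 (red) lists for the 6 peptidase genes, the fixed lists of related genes and all protein-coding genes; the number of genes in each list stands in brackets and the number with a peak beside each bar. All 6 peptidase genes have peaks, 12 of 14 transport genes do, and 3 of 9 relatives of Dpp4 do.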

How the data were processed

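The authors deposited 1 peak list per genotype; per the file names, duplicate reads were removed, Piranha called the peaks and the libraries were merged. The submitters' processing notes name cutadapt, TopHat, mm9 and mm10; no version is given there. Coordinates fit mm10 (GRCm38). Each deposited cell joins a score and a p-value; the score was used and the p-value was not, because it exceeds 0.05 in 57.9% (WT) and 68.4% (TRE-Msi2) of joined peaks; how joined scores were averaged is not stated.

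Gene spans, and strands where listed, came from RefSeq tables of GRCm38.p6 (start and end only, no exons and no genome sequence). The 6 members and all lists were chosen with earlier results of these data known. Named genes were the members and, per fixed list, at most the 4 genes with the highest top score, besides single genes named after their values were seen. The values of 1 gene of these lists are not reported here. The table used for strands did not list Mep1b. Overlap between lists meant 1 base on the same strand. Scripts (Python 3.11.15, pandas 2.3.3, scipy 1.17.1) were tested on simulated peaks. Depth per library is unknown; intervals (exact, 95%) cover counting error only. Alternatives changed the score threshold, list length, strand, overlap, peak width and counting by bins.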

Additional observations from a re-analysis of the deposited data

How the results depend on the processing

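The total of peaks over the 6 genes (52 in WT, 66 in TRE-Msi2) stayed within 1.5 times under a higher score threshold, a shortened TRE-Msi2 list, the transcribed strand alone and a stricter overlap with the span; counted in 200-nt bins it was 88 and 116. With single-bin peaks only, 3 genes in place of 5 had a WT top score in the upper 10% of genes, and 2.94% of WT peaks in place of 13.7% lay in the last 10% of the span. The share with a counterpart in the other list ran from 95.3% to 100% (WT) and from 76.9% to 84.7% (TRE-Msi2). Without Dpp4, an alternative added after seeing the data, 16.2% and 13.0% of peaks lay in the last 10% of the span. Apart from the counts in bins and the single-bin values for WT just given, the 30 alternative values of the main comparisons stayed close (26 of 30). Among values for single genes and lists 97 stayed close and 14 moved. Mep1a had no single-bin peak and so gave no value in that setting. Placement by exon and untranslated region was not run, because the gene table gives no exons. No paired analysis was possible because each deposited list pools the libraries of a genotype, and for the same reason no library could be left out. Depth limits the weakest peaks most: a score of 15 has a 95% interval of 8.40 to 24.7.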
